A study of Glycine soja with 4 samples.

Results

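The Al-free and Al-treated degradome target lists of wild soybean roots name the genes whose cleaved transcripts were assigned to a miRNA, with 1 library and 1 list for each condition. The members were all entries of both lists, with each distinct miRNA and gene pair counted once. This gave 88 pairs of 23 miRNA names and 78 genes, from 2 of the 4 samples of the series, and the other 2 samples were the small RNA libraries of the same conditions. Seedlings of *Glycine soja* genotype BW69, an Al-tolerant wild soybean, were kept at pH 4.5 with 0 µM (Al-free) or 50 µM (Al-treated) AlCl3. The outermost 10 cm of the roots was taken at 7 times (the early harvests at 1, 3 and 6 h, the later ones at 12, 24 and 48 h and the last at 96 h), and the harvests were pooled into 1 library per condition. Pooling removed the time course and left no replicates, so each difference below was between 2 lists or 2 libraries and not an effect tested over plants. In such bulk roots, fewer cells of a type and less RNA per cell cannot be told apart. Transcripts of cultivated soybean, *Glycine max*, served as the reference for the wild species.

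A plant miRNA guides an Argonaute protein to a transcript with nearly full complementarity, and the transcript is cut opposite the middle of the miRNA. The downstream fragment keeps a free 5′ end, and degradome sequencing reads such ends across the transcriptome. In plants many conserved miRNAs cut transcripts of transcription factors that set growth and development, and others cut transcripts of hormone receptors, immune receptors and nutrient transporters. In acid soil, Al ions stop the growth of root tips, and auxin signalling takes part in that response in Arabidopsis.

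The lists hold names without read numbers, so a gene missing from a list was not called there, and how close it came to being called was not analysed here. The Al-free list had 46 lines and no repeated line. The Al-treated list had 85 lines, of which 7 were repeats of 1 pair, gso-miR1510 with Glyma02g04750, which stood on 8 lines. For that miRNA a supplementary table of the study names other genes in place of the repeats, and among these it places the TIR genes of the Al-free list in the Al-treated condition too. The paper counts 8 genes cut by gso-miR1510 in the Al-treated library, of which only 2 were also found in the Al-free one. The Al-treated targets of gso-miR1510 as deposited are therefore uncertain, and counts without that miRNA are given beside the totals.

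The miRNAs that matter most for the comparison are shown with the seed, bases 2 to 8 from the 5′ end, in capitals, and T stands for U as in the deposited sequences. The first set holds miRNAs that share listed genes with another miRNA name. PN-miR156 and PN-miR157 shared 5 genes, PN-miR159 and PN-miR319 shared 2, PN-miR169 and PC-2-5p shared 2, and the pair of miR1509 names shared 1.
PN-miR156b, c and d: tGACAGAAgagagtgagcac
PN-miR157d: tGACAGAAgatagagagcac
PN-miR156c, d, e and g: tTGACAGAagatagagagcac
PN-miR159a: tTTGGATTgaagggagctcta
PN-miR319: tTTGGACTgaagggagctcct
PN-miR319a and b: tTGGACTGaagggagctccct
PN-miR169c: aAGCCAAGgatgacttgccga
PC-2-5p: tAGCCAAGaatgacttgccgg
PN-miR1509b: tTAATCAAggaaatcacggttg
gso-miR1509a: tTAATCAAggaaatcacggtcg

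The shared genes went with near-identical sequences. PN-miR157d matched the second PN-miR156 sequence shown at 20 of 20 overlapping bases and lacked only its first base, at the 5′ end. The lists hold no cut positions, so which of these sequences guided a cut was not analysed here. PC-2-5p and PN-miR169c had the same seed and differed at 3 of 21 positions (T1A, A9G and G21A, with the base of PC-2-5p first and positions counted from its 5′ end). PN-miR1509b and gso-miR1509a also had the same seed and differed at 1 position (T21C, with the base of PN-miR1509b first). PN-miR159a and PN-miR319 were identical at 18 of 21 bases and differed by T7C, T20C and A21T, the first of which lies in the seed, so they shared genes without sharing a seed.

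The second set holds sequences of miRNAs whose listed genes all stood in a single list, which was the Al-treated list for the first 6 lines and the Al-free list for PN-miR399a.
PN-miR160b: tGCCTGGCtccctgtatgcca
PN-miR160c: tGCCTGGCtccctgcatgcca
PN-miR394: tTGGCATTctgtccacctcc
PN-miR1514a: tTCATTTTtaaaataggcattggg
gso-miR2109: tGCGAGTGtcttcgcctctga
gso-mir167a-p3: gATCATGTggctgcttcacc
PN-miR399a: tGCCAAAGgagagttgccctg

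The third set holds miRNAs with listed genes in both conditions, together with PC-68a-5p and gso-miR1510, whose genes differed completely between the lists.
PN-miR393-2: tTCCAAAGggatcgcattgatc
PN-miR396a-1: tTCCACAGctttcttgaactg
PN-miR396b and c: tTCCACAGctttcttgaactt
PN-miR172: gGAATCTTgatgatgctgcag
PN-miR1511: aACCAGGCtctgatacca
PC-13-3p: tTAGATTCacgcacaaacttg
PC-46-5p: cTATATGAtgaagata
PC-68a-5p: gCAGCAGCatcaagattcaca
gso-miR1510a and b: tGTTGTTTtacctattccacc

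Names in the lists often gave a family without a letter, so each name was joined to every small RNA sequence of that name, and which of these sequences guided a given cut is not stated in the lists. All 23 names were joined, to 35 distinct sequences. For PN-miR394 the join took in PN-miR394a, which matched the sequence shown at only 7 of 20 overlapping bases.

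The Al-treated list was the longer one, and it held most of the Al-free list. It named 78 pairs against 46 in the Al-free list. Of the 88 pairs, 36 (40.9%) stood in both lists, 42 (47.7%) only in the Al-treated list and 10 (11.4%) only in the Al-free list. The shared pairs were 78.3% of the Al-free list and 46.2% of the Al-treated list. By gene, 41 stood in the Al-free and 70 in the Al-treated list, with 33 of 78 in both, 37 only in the Al-treated list and 8 only in the Al-free list. Without gso-miR1510 the pairs were 44 and 77, of which 36 were shared. By the study's summary the Al-treated degradome had slightly fewer reads than the Al-free one, and the part of depth in the lists was not tested.

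Transcription factors made up most of the genes in each list. They were 46 of the 78 genes, 22 in the Al-free list and 44 in the Al-treated list. Of them 20 (43.5%) were in both lists, 24 (52.2%) only in the Al-treated and 2 (4.35%) only in the Al-free list. The shares over all 78 genes, which include these 46, were 42.3%, 47.4% and 10.3%. The shares in both lists and only in the Al-treated list lay near these, and the Al-free-only share was lower. F-box genes, which encode the substrate-binding subunits of ubiquitin ligases, numbered 9, with 5 in both lists and 4 only in the Al-treated list. NB-LRR genes, the intracellular immune receptors of plants, numbered 4, with 2 in each list as deposited and no member in common, a count that rests on the uncertain gso-miR1510 lines. The remaining 19 genes split into 8 in both lists, 7 only in the Al-treated and 4 only in the Al-free list.

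**Figure D1:**
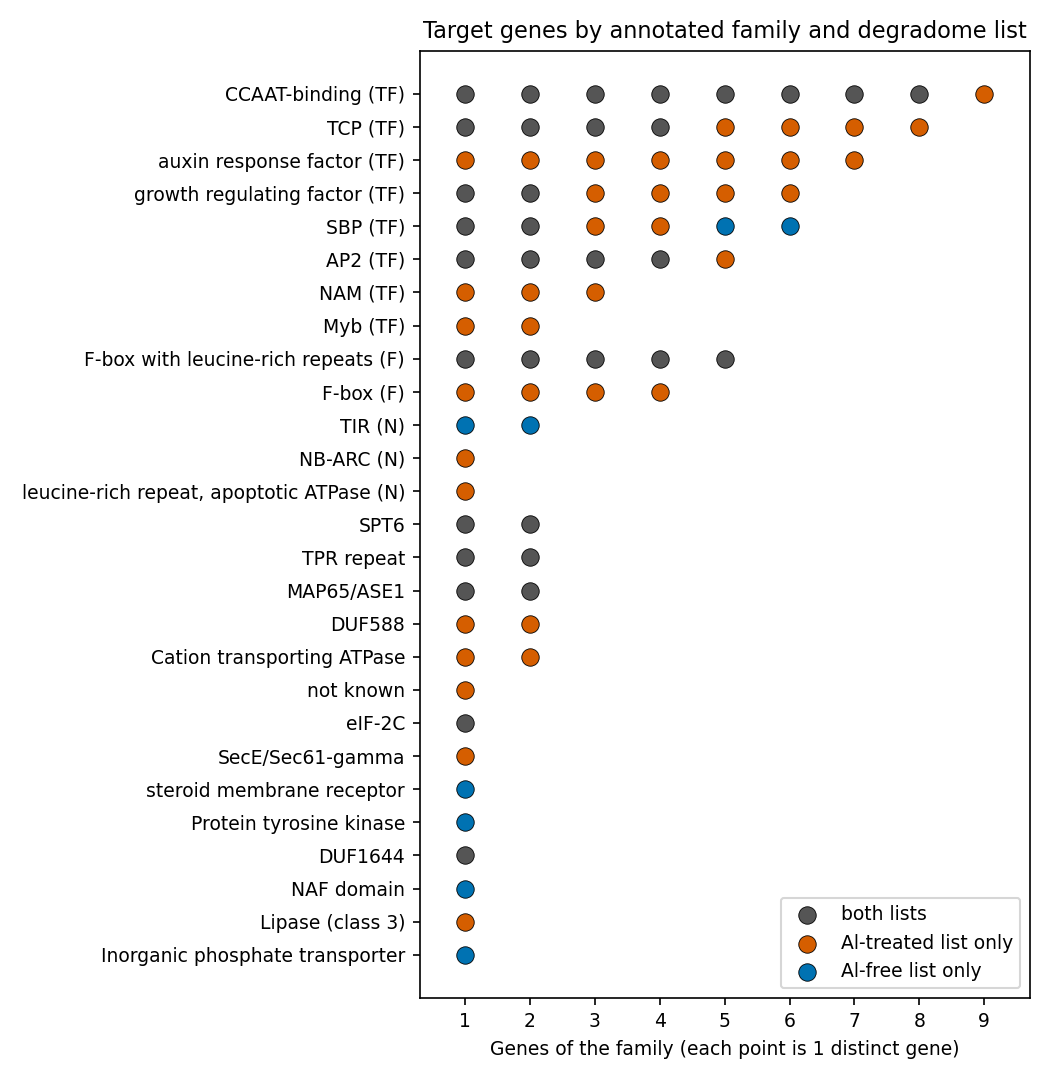
Distinct target genes of each annotated family, 1 point per gene, coloured by the list that names it; TF marks transcription factors, F the F-box class and N the NB-LRR class. All 7 auxin response factor genes and 4 F-box genes were only in the Al-treated list, all 5 F-box genes with leucine-rich repeats were in both lists, and the 6 SBP genes were spread over all 3 kinds of presence.

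Of the 16 families with at least 2 genes, which held 67 genes, 11, with 33 genes, had all their genes in the same kind of presence and 5, with 34 genes, were mixed, as the plot of genes by family shows. Of the 11, 7 had only 2 genes. By presence, 4 were wholly in both lists, 6 wholly in the Al-treated list and the TIR genes, which depend on the gso-miR1510 lines, wholly in the Al-free list. Paralogues with the same sequence at a target site can receive the same degradome read, so genes of a family are not separate observations. By the chromosome number in their identifiers, the 78 genes lay on all 20 soybean chromosomes, and in 10 of the 16 families each gene was on a chromosome of its own. The NAM genes Glyma16g01930 and Glyma16g01940, both listed only in the Al-treated condition, were the only pair of listed genes whose identifiers were close neighbours, 10 apart.

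Auxin response factors were absent from the Al-free list as a whole. So were the smaller NAM, Myb, cation transporting ATPase and DUF588 families and the F-box genes of PN-miR394. Of all genes, 47.4% were only in the Al-treated list. Auxin response factors bind auxin-responsive promoters, and in Arabidopsis the members cut by miR160 act in root cap formation. PN-miR160 had 7 genes in the Al-treated list (Glyma10g35480, Glyma11g20490, Glyma12g08110, Glyma12g29720, Glyma13g02410, Glyma14g33730 and Glyma20g32040) and none in the Al-free list. Its small RNA reads went the other way only slightly, with 281 in the Al-free and 239 in the Al-treated library. The log2 ratio of Al-treated over Al-free reads, scaled by the clean reads of each small RNA library, was -0.28 (95% interval -0.54 to -0.03). This and all later intervals are exact Clopper-Pearson intervals that cover counting error only.

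The F-box genes with leucine-rich repeats stood in both lists. PN-miR393 had the same 5 of them in each list, Glyma02g17170, Glyma10g02630, Glyma16g05500, Glyma19g27280 and Glyma19g39420. In Arabidopsis miR393 cuts transcripts of TIR1 and related receptors, which bind auxin and mark its repressors for degradation. PN-miR393 had 21 Al-free and 42 Al-treated reads, a log2 ratio of 0.95 (0.16 to 1.78). The other F-box genes, Glyma05g28050, Glyma08g11030, Glyma11g36960 and Glyma18g00870, were listed under PN-miR394 and only in the Al-treated list. PN-miR394, whose F-box target in Arabidopsis acts in leaf shape, had 3 Al-free and 2 Al-treated reads, too few to order the libraries.

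PN-miR319 had the most genes of any miRNA, mostly TCP genes, which control cell division in growing organs. It had 10 genes, 4 in both lists and 6 only in the Al-treated list. The TCP genes in both lists were Glyma05g27370, Glyma08g10350, Glyma12g35720 and Glyma13g34690, and those only in the Al-treated list were Glyma06g34330, Glyma12g20160, Glyma13g29160 and Glyma15g09910. The remaining PN-miR319 genes were the Myb genes Glyma13g04030 and Glyma20g11040, which were also listed under PN-miR159, again only in the Al-treated list. Myb genes of the kind cut by miR159 relay gibberellin signals in cereals and Arabidopsis. PN-miR159 also had Glyma12g28990, a SecE/Sec61-gamma subunit of the protein translocation channel, also only in the Al-treated list. PN-miR159 had no gene in the Al-free list despite 2364 reads in that condition against 2122 under Al, which gave a log2 ratio of -0.21 (-0.29 to -0.12). PN-miR319 had 606 and 803 reads, a log2 ratio of 0.36 (0.20 to 0.51) that became -0.14 with scaling by the summed listed reads. Its sequences went opposite ways, with 485 and 720 reads of PN-miR319a and b, a log2 ratio of 0.52 (0.35 to 0.69), and 121 and 83 reads of PN-miR319, a log2 ratio of -0.59 (-1.02 to -0.18).

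Of the 6 growth regulating factor genes, 4 (66.7%) were only in the Al-treated list, against 47.4% of all genes. These transcription factors promote cell proliferation in leaves and roots. PN-miR396 had Glyma03g35010 and Glyma19g37740 in both lists and Glyma01g44470, Glyma11g01060, Glyma11g11820 and Glyma12g01730 only in the Al-treated list. Its reads numbered 207 (Al-free) and 931 (Al-treated), a log2 ratio of 2.12 (1.90 to 2.34). The difference was uneven between its sequences, which differ only in the last base (G21T, with the base of PN-miR396a-1 first). PN-miR396a-1 had 81 and 676 reads, a log2 ratio of 3.01 (2.68 to 3.36), and PN-miR396b and c had 126 and 255 reads, a log2 ratio of 0.97 (0.65 to 1.29).

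CCAAT-binding and AP2 genes were nearly the same in both lists. CCAAT-binding factors of this kind, subunits of nuclear factor Y, act in nodule development in legumes, and AP2 genes set flowering time and floral organ identity in Arabidopsis. PN-miR169 had 9 CCAAT-binding genes, with Glyma07g04050 only in the Al-treated list and 8 in both (Glyma03g36140, Glyma08g45030, Glyma09g07960, Glyma13g16770, Glyma15g18970, Glyma17g05920, Glyma18g07890 and Glyma19g38800). PC-2-5p was listed for Glyma08g45030 and Glyma18g07890 in both lists. PN-miR169 had 17 Al-free and 51 Al-treated reads, a log2 ratio of 1.53 (0.72 to 2.42), and PC-2-5p had 8 and 15, a log2 ratio of 0.86 (-0.47 to 2.30). Under PN-miR172, Glyma02g09600 was only in the Al-treated list, and Glyma11g15650, Glyma12g07800, Glyma13g40470 and Glyma15g04930 were in both. PN-miR172 had 22 and 15 reads, and the interval of its log2 ratio, -0.60 (-1.66 to 0.41), included 0.

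The SBP genes showed every kind of presence. SBP proteins advance the change from juvenile to adult growth in Arabidopsis, where miR156 holds them back. Of 6 SBP genes, Glyma03g29900 and Glyma19g32800 were in both lists, Glyma02g30670 and Glyma19g26390 only in the Al-treated and Glyma05g38180 and Glyma08g01450 only in the Al-free list. These last were the only transcription factor genes missing from the Al-treated list. All SBP genes but Glyma19g26390 were listed under both PN-miR156 and PN-miR157. Glyma03g29900 and Glyma19g32800 were in both lists under PN-miR156 but only in the Al-treated list under PN-miR157, and no other gene differed in presence between its miRNAs. PN-miR156 also had Glyma17g08270, annotated with the NAF domain by which protein kinases bind calcium sensors, only in the Al-free list, and Glyma16g05900, a gene of unknown function, only in the Al-treated list.

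The miR156 reads were lower in the Al-treated library for one sequence and level for another. PN-miR156 as a whole had 566 Al-free and 338 Al-treated reads, a log2 ratio of -0.79 (-0.99 to -0.60). PN-miR156b, c and d had 369 and 137 reads, a log2 ratio of -1.48 (-1.77 to -1.19), whereas PN-miR156c, d, e and g had 195 and 197 reads. PN-miR157 had 10 and 9 reads. The other strand of a miR156 precursor, PN-mir156f-p3, had 1 read in each library and yet the same pair of genes in both lists, Glyma03g27590 and Glyma19g30560, which encode SPT6, a histone chaperone that travels with RNA polymerase. For both genes the paper gives only a very small percentage of cleavage at the expected site in either library.

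The NAM genes, named for a petunia gene that forms meristem and organ boundaries, were listed under PN-miR1514. Glyma07g05360, Glyma16g01930 and Glyma16g01940 were only in the Al-treated list. PN-miR1514 had 12 Al-free and 54 Al-treated reads, a log2 ratio of 2.12 (1.20 to 3.16). In the paper's qRT-PCR the pattern of PN-miR1514a did not match the sequencing, unlike that of most miRNAs measured there.

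The NB-LRR class had different genes in each list as deposited, which rests on the repeated gso-miR1510 lines and does not hold in the study's supplementary table. Under gso-miR1510 the Al-free list named Glyma04g39740 and Glyma12g27800, annotated with the TIR domain of immune receptors, and the Al-treated list named Glyma02g04750, annotated with the NB-ARC nucleotide-binding domain. The fourth gene, Glyma16g34000, annotated as a leucine-rich repeat protein and apoptotic ATPase, was under gso-miR2109 and only in the Al-treated list. Without gso-miR1510, for which the list is uncertain, the class kept 0 genes in the Al-free and 1 in the Al-treated list. gso-miR1510 had 224 and 275 reads, a log2 ratio of 0.25 (-0.01 to 0.51), and gso-miR2109 had 796 and 643, a log2 ratio of -0.36 (-0.51 to -0.21).

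Among the other genes, several pairs of paralogues were listed together. PN-miR1511 had the MAP65/ASE1 genes Glyma09g42210 and Glyma20g00290, whose products bundle microtubules, in both lists, with 703 and 539 reads of the miRNA, a log2 ratio of -0.43 (-0.60 to -0.27). Glyma18g03980, a DUF1644 protein of unknown function, was in both lists under gso-miR1509 and under PN-miR1509. The reads of these miRNAs, which differ by 1 base, went apart. gso-miR1509 had 4040 and 3068 reads, a log2 ratio of -0.45 (-0.52 to -0.38), and PN-miR1509 had 190 and 2232, a log2 ratio of 3.50 (3.29 to 3.73). PC-13-3p had Glyma20g02820, annotated as eIF-2C, an older name of Argonaute proteins, in both lists. PC-13-3p had 5 Al-free and 44 Al-treated reads, a log2 ratio of 3.09 (1.76 to 4.78). The paper gives the same sequence, with the same reads, as PN-miR403a and b, which it counts among the conserved miRNAs.

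The predicted candidates PC-46-5p and PC-68a-5p had some or all of their gene families in a single list. PC-46-5p, the shortest sequence shown at 16 bases, had Glyma13g03270 and Glyma14g23650, which encode proteins with TPR repeats that bind other proteins, in both lists. The cation transporting ATPase genes Glyma03g33240 and Glyma19g35960 were only in the Al-treated list and the protein tyrosine kinase gene Glyma05g23260 only in the Al-free list. PC-46-5p had 52 and 26 reads, a log2 ratio of -1.05 (-1.79 to -0.35), with 3 genes in the Al-free and 4 in the Al-treated list. PC-68a-5p had Glyma10g38150, a putative steroid membrane receptor, in the Al-free list and the DUF588 genes Glyma02g36170 and Glyma10g08730 in the Al-treated list. It had 1 and 12 reads, a log2 ratio of 3.53 with a wide interval (0.78 to 8.95).

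The last single entries were a phosphate transporter and a lipase. Glyma14g36650, which encodes an inorganic phosphate transporter, was listed under PN-miR399 only in the Al-free condition. PN-miR399, which responds to phosphate starvation in Arabidopsis, had 1 read in each small RNA library. Glyma13g04540, a class 3 lipase, was listed under gso-mir167-3p only in the Al-treated condition, with 12 and 9 reads of that strand.

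**Figure D2:**
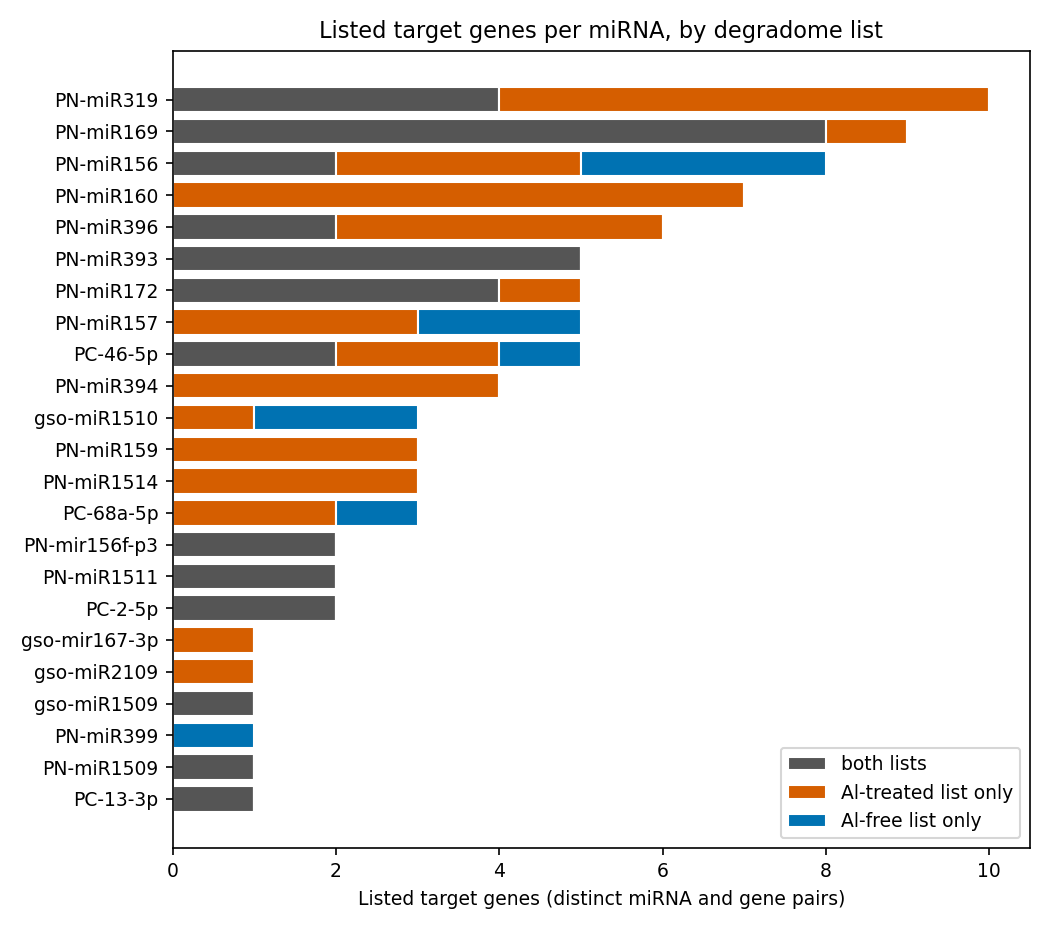
Number of listed target genes of each of the 23 miRNA names, split by presence in both lists, in the Al-treated list only and in the Al-free list only. PN-miR319 had the most genes (10), PN-miR160 (7) had them in the Al-treated list only, and PN-miR399 (1) was the only name with no gene in the Al-treated list.

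The number of genes per miRNA ran from 1 to 10 with a median of 3, as the plot of genes per miRNA shows. A single gene was listed for 6 names and at least 5 genes for 9 names. The median was 2 genes over the 17 names of the Al-free list and 3 over the 22 names of the Al-treated list. All genes of a name were in both lists for 7 names, only in the Al-treated list for 6 names, only in the Al-free list for 1, and mixed for 9. Most genes had a single miRNA name (68 of 78), and 10 had 2 names, which for Glyma18g03980 were both miR1509.

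Some miRNAs with many reads had no gene in the Al-free list, and some with few reads had genes in both lists, as the plot of reads shows. Among the 6 names with genes only in the Al-treated list, PN-miR1514 had a log2 ratio of 2.12, and the other 5 ran from -0.64 for PN-miR394 to -0.21 for PN-miR159. The value of PN-miR394 rests on 3 Al-free and 2 Al-treated reads, with an interval of -4.22 to 2.49. PN-miR159, gso-miR2109 and PN-miR160 had 2364, 796 and 281 reads in the Al-free small RNA library and no gene in the Al-free list. At the other end PN-mir156f-p3, with 1 read, had 2 genes there and PC-13-3p, with 5 reads, had 1. The paper places those 2 genes, like most targets, in its category III, below the most abundant tag of the transcript. How firm the calls were was not compared here. Both the small RNA and the degradome libraries were single, and whether these gaps exceed the difference between repeat libraries was not tested.

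**Figure D3:**
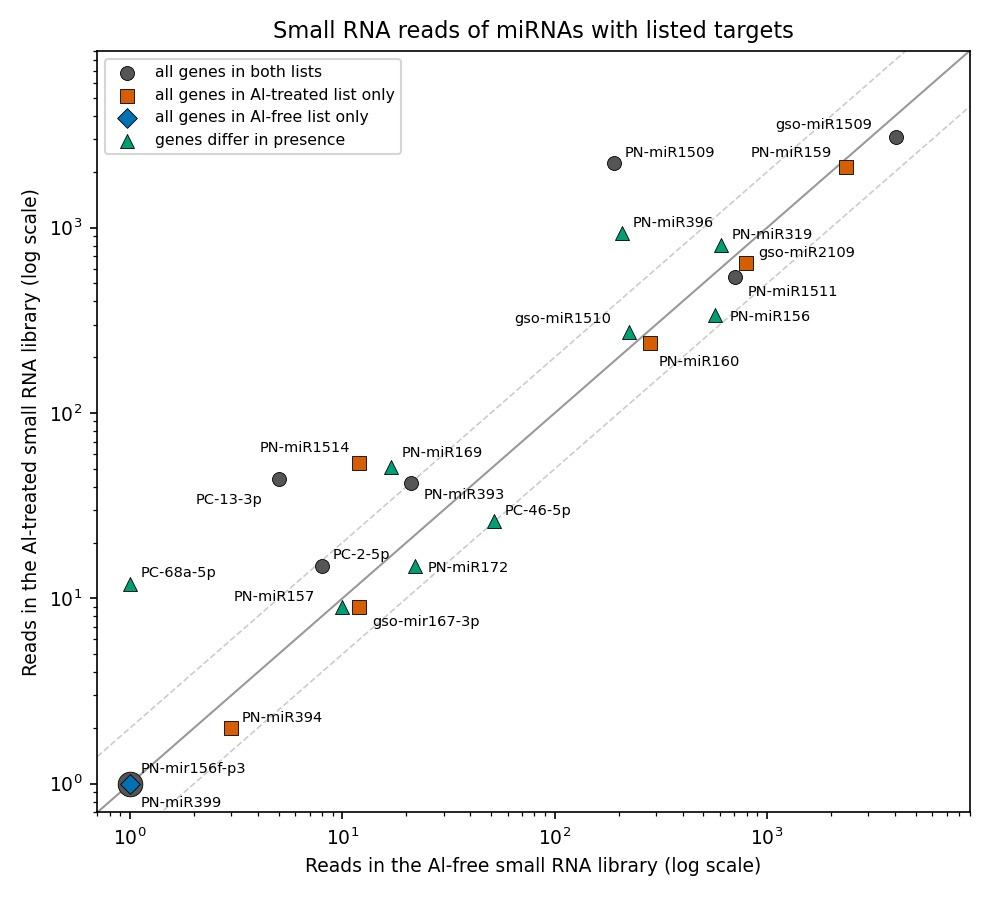
Raw small RNA reads of the 23 miRNA names in the Al-free (x axis) and Al-treated (y axis) libraries on log scales, with marker shapes for the presence of their listed genes; the solid line marks equal reads and the dashed lines 2-fold differences. PN-miR1509 (190 and 2232 reads) and PN-miR396 (207 and 931) lie far above the lines, PN-miR159 (2364 and 2122) lies near the line of equal reads although its genes were only in the Al-treated list, and PN-mir156f-p3 and PN-miR399 share the point at 1 read in each library.

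By a rule of at least 10 reads in at least 1 library and a ratio of at least 2, 6 of the 24 sequences with listed targets that met the minimum were higher in the Al-treated library (25.0%) and 2 were lower (8.33%). Over all 130 listed small RNA sequences that met the minimum, 26.9% were higher and 16.2% were lower, so the share of higher sequences among miRNAs with targets lay near that of all sequences. The higher ones were PC-13-3p, PC-68a-5p, PN-miR1509b, PN-miR1514a, PN-miR169c and PN-miR396a-1, and the lower ones were PC-46-5p and PN-miR156b, c and d. The median log2 ratio was -0.12 over the 24 sequences and 0.24 over the 128 sequences with reads in both libraries among the 130.

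The miRNAs with listed targets were more often 21 nt long and more often began with T than the other listed small RNAs. Family names were joined to mature sequences only, so p3 and p5 strands and predicted candidates mostly fell among the others. How much of the contrast came from this make-up was not tested. Of the 35 sequences with a target 23 (65.7%) had 21 nt and 1 (2.86%) had 24 nt, whereas of the 182 without a target 55 (30.2%) had 21 nt and 77 (42.3%) had 24 nt. T was the first base of 65.7% of the sequences with a target and 35.7% of those without, and T as first base is the mark by which Arabidopsis AGO1, the main slicing Argonaute, takes up miRNAs. The plot of lengths shows both sets. Sequences with a target held 33.3% of the listed reads in the Al-free and 25.8% in the Al-treated library, with median reads of 12 and 36 against 7 and 9 for those without. Without gso-miR2218, which had no target, these shares were 43.8% and 45.1%. That sequence was the most abundant one, with 7282 Al-free and 19061 Al-treated reads.

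**Figure D4:**
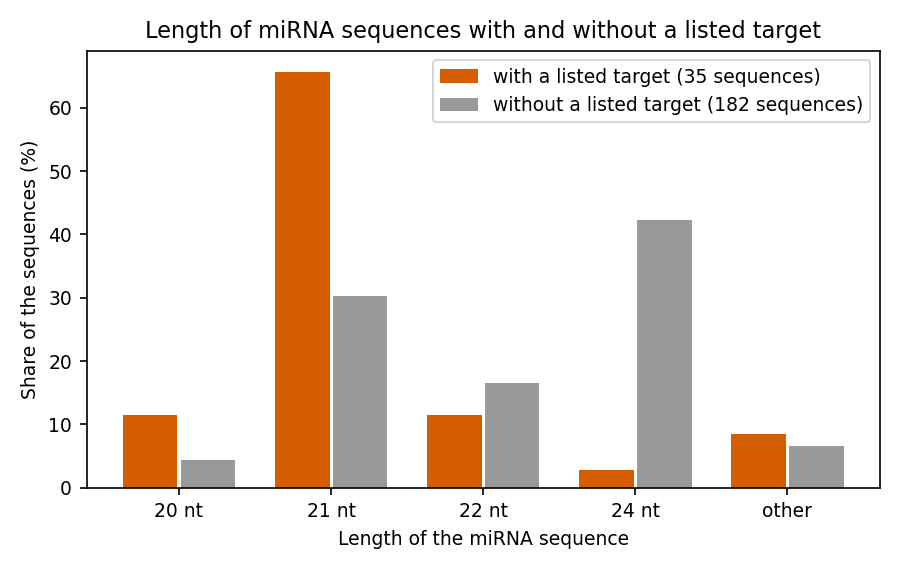
Share of miRNA sequences of each length (y axis, percent) among the 35 sequences with a listed target and the 182 without. Sequences of 21 nt made up 65.7% of the first and 30.2% of the second set, and those of 24 nt 2.86% and 42.3%.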

How the data were processed

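The deposited degradome lists held only miRNA names and gene identifiers. Targets had been called by the authors with CleaveLand 3.0 and ACGT301-DGE 1.0 against *G. max* transcripts. The deposited small RNA counts were raw reads per miRNA name and sequence, which the authors obtained with ACGT101-miR 4.2 without normalization; they summed to 30411 (Al-free) and 44493 (Al-treated) over 217 sequences. The intervals of the ratios cover counting error only, and variation between libraries was not measured.

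Repeated lines were counted once. Gene families were those annotated by the study, and 0 of the 78 identifiers were in the reference gene table, so no target-site sequence or position was analysed here. Each distinct sequence entered the sums of reads 1 time, and sums were scaled by the clean reads that the study gives for each small RNA library. Clopper-Pearson intervals (95%) came from Python 3.11.15 with NumPy 2.4.6 and SciPy 1.17.1, in code tested on simulated data, and plots were drawn with matplotlib 3.10.9. No test between conditions was run, because each had 1 library.

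The members, gene classes and lists were chosen with earlier results of these data known. All pairs could be named; every gene only in the Al-free list, under several miRNA families, or of the F-box or NB-LRR class had to be. Alternatives changed the counted unit, the miRNAs kept, the classes, the scaling, the read minimum and the pseudocount. Those leaving out gso-miR1510, counting repeated lines joining PC-2-5p to PN-miR169 or leaving out gso-miR2218 were chosen after seeing the data.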

Additional observations from a re-analysis of the deposited data

How the results depend on the processing

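Under the alternatives that count pairs, genes or paralogue groups, the shared part of the Al-free list ran from 72.2% (paralogue groups) to 81.8% (without PN-miR157, or without gso-miR1510), and that of the Al-treated list from 42.4% (repeated lines counted) to 52.0% (paralogue groups). Counted by whole names or families, it was 94.1% and 72.7% of miRNA names, 93.8% and 71.4% of miRNA families, and 68.8% and 50.0% of gene families. By paralogue group the order turned, with 43.3% in both lists and 40% only in the Al-treated list, against 40.9% and 47.7% of pairs. The NB-LRR class did not hold its counts of 2 genes in each list. The Al-free list had 0 NB-LRR genes when TIR annotations were moved to the other genes, and without gso-miR1510 the lists had 0 and 1. Of the sequences with targets, 3 rather than 6 were at least 2-fold higher after Al treatment when the minimum was 50 reads and 9 with no minimum, and 4 rather than 2 were lower with no minimum or when scaled by the summed reads of the listed sequences. That scaling shifted every log2 ratio by -0.50, the median of ratios by -0.20 and the study's normalization factors by -0.11. No paired analysis was possible because each condition had 1 degradome and 1 small RNA library. The lists carry no reads, so a pair missing from a list may lie just under the calling limit, and families that share reads may be counted more than once.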
